A study of Homo sapiens with 13 samples.

Results

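The MYC and PVT1 locus is the stretch of chromosome 8 that runs from 500 kb left of MYC to 500 kb right of PVT1, chr8:128247680-129699347 on hg19, 1.45 Mb in all. It was chosen by the position of these 2 genes and with the width of an H3K4me1 region within PVT1, the widest of its list, already known. It held 192 of the 233691 peaks in the 6 lists. MYC (ENSG00000136997, chr8:128747680-128755197, plus strand) is a protein-coding gene of 7.52 kb with 3 canonical exons. PVT1 (ENSG00000249859, chr8:128806772-129199347, plus strand) is a long noncoding RNA (lncRNA) gene of 393 kb with 11 canonical exons, and 51.6 kb separate it from MYC. Their canonical transcription start sites (TSSs) lie 58.3 kb apart.

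The study mapped chromatin by immunoprecipitation and sequencing (ChIP-seq) in MDA-MB-231 cells, an established human line from a triple-negative breast cancer, grown in standard medium with no treatment or genetic change in any sample used here. There were 2 replicate libraries each for H3K4me1, H3K27ac, H3K4me3, RNA polymerase II (Pol II) and CTCF, and 1 library of pooled immunoprecipitations for p300/CBP; 2 input libraries were not used here. For each antibody the authors deposited 1 list of peak positions called after the replicates had been merged, so a peak is listed or not, with no height, no depth and no error between replicates. In such bulk chromatin, a strong mark in some cells and a weak mark in all of them cannot be told apart.

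MYC is a transcription factor that binds DNA as a dimer with MAX and drives genes of growth and metabolism, and it is among the most frequently deregulated oncogenes. PVT1 lies next to it, is the host of several microRNAs, and shares a gene-poor region with many enhancers that act in different tissues. H3K4me1 marks enhancers, H3K27ac active enhancers and promoters, and H3K4me3 promoters; p300 and CBP are acetyltransferases recruited by transcription factors, and CTCF is the protein that bounds chromatin loops.

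As a check of the cell label, all 5 mesenchymal or basal markers listed (VIM, CD44, AXL, ZEB1 and MSN) had H3K27ac in the 3 kb window centred on the canonical TSS. Of 6 luminal or epithelial markers (ESR1, PGR, GATA3, FOXA1, CDH1 and ESRP1), only 1, FOXA1, had it. The share of all protein-coding TSS windows with H3K27ac was 61.5%.

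The locus was rich in enhancer marks and in p300/CBP and poor in CTCF. H3K4me1 covered 20.3% of it, against 5.92% of the genome, in 70 regions. H3K27ac covered 9.27% in 47 regions, against 2.50% of the genome. The 32 p300/CBP peaks covered 0.510%, against 0.0960% of the genome and 0.151% of chromosome 8, a ratio to the genome of 5.31, the highest of the 6 lists here. H3K4me3 (17 regions, 2.34% against 1.34%) and Pol II (16 peaks, 2.45% against 1.51%) stood closer to their genome-wide shares. CTCF went the other way, with 10 peaks that covered 0.179%, against 0.424% of the genome.

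The locus was ranked by covered bases among 1951 windows of the same length tiled over chromosomes 1 to 22 and X. It was passed by 48 windows in H3K4me1 (2.46%), by 36 in H3K27ac (1.85%) and by 28 in p300/CBP (1.44%). More windows had a larger share of H3K4me3 (306, 15.7%) or Pol II (348, 17.8%). In CTCF 1550 windows, 79.4%, had a larger share. These ranks describe a locus that was proposed with its marks known, and no test was made of them.

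**Figure D1:**
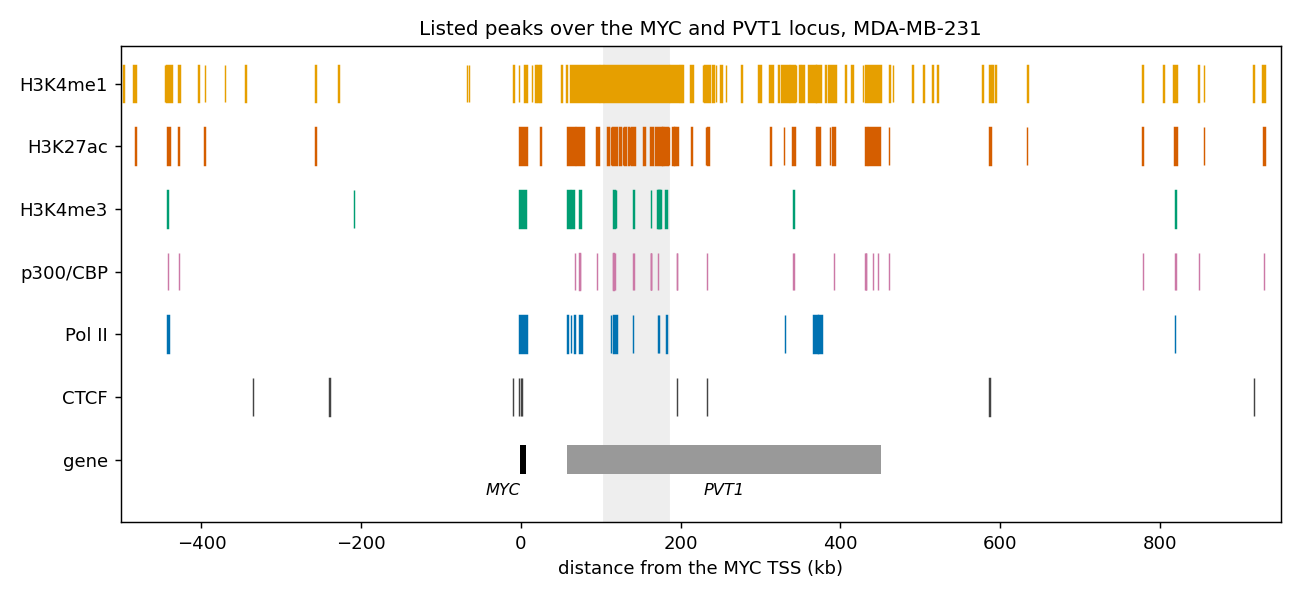
Positions of all listed peaks (coloured bars, 1 row per list) and of the genes MYC (black) and PVT1 (grey) along the window, in kb from the canonical MYC TSS; the grey band is the 81.7 kb H3K4me1 region, and narrow peaks are drawn at a minimum line width. Most peaks of every list but CTCF lie from MYC to the right end of PVT1, and CTCF has 10 peaks in all.

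PVT1 held most of these marks. Its gene body, 393 kb of the 1.45 Mb, contained 79.8% of the bases covered by H3K4me1, 77.3% of those covered by H3K27ac and 24 of the 32 p300/CBP peaks. H3K4me1 covered 235 kb of PVT1, H3K27ac 26.5% of its length, Pol II 5.99%, H3K4me3 5.70% and p300/CBP 1.36%. CTCF had 2 peaks of 100 bp there, or 0.0509% of the gene. The 500 kb left of MYC were sparse by comparison, with 4.24% covered by H3K4me1, 1.92% by H3K27ac and 2 p300/CBP peaks. In the 500 kb right of PVT1 the shares were 5.27% and 2.23%, with 6 p300/CBP peaks. No p300/CBP peak lay in MYC or in the 51.6 kb between the genes.

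Within PVT1 the marks were uneven. The gene was read in 4 equal lengths. In the first 98.1 kb H3K4me1 covered 94.9%, H3K27ac 48.0%, H3K4me3 15.8% and Pol II 11.1%. From there to 196 kb the shares were 59.8% for H3K4me1 and 27.1% for H3K27ac. From 196 kb to 294 kb they were 32.4% and 4.23%, the lowest of the gene. From 294 kb to its end they were 52.7% and 26.7%, with 6 p300/CBP peaks and 10.5% Pol II, but with no H3K4me3 region. H3K27ac thus dipped from 196 kb to 294 kb, with H3K4me3 mostly on the 5′ side of the dip and absent on the 3′ side.

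**Figure D2:**
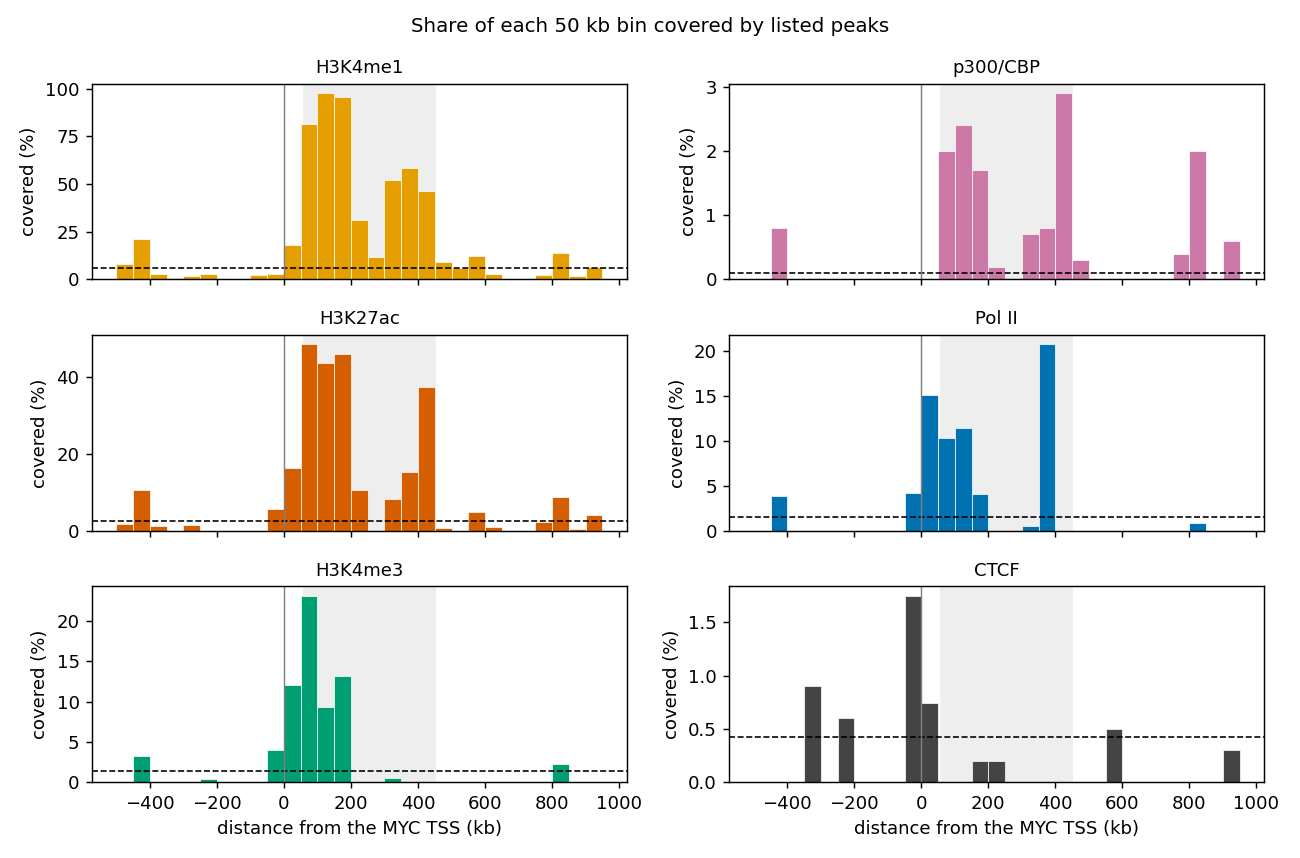
Share of each 50 kb bin (in percent, vertical axis, a different range for each list) covered by listed peaks, against distance from the MYC TSS in kb; the grey band is PVT1, the vertical line the MYC TSS and the dashed line the genome-wide share. H3K4me1 reaches 97.8% in the bin from 100 to 150 kb, and H3K27ac has a high of 48.5% in the bin from 50 to 100 kb and another of 37.3% in the bin from 400 to 450 kb.

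The widest of the 88319 H3K4me1 regions lay inside PVT1, at chr8:128852001-128933651. It was 81650 bp wide, 68.0 times the list's median of 1200 bp, and ran from 45.2 kb to 127 kb past the PVT1 TSS, or from 104 kb to 185 kb past that of MYC. It is shown because it was selected on this width, so the width and rank are a description. The next widest regions of the list were 63250 bp over ACTN4, 59250 bp over CRIM1, 58850 bp over SMURF2 and 57800 bp over BCAR3. Regions above the threshold had been joined by the authors across gaps shorter than 1000 bp, and the gaps to the neighbouring H3K4me1 regions were 1100 bp on the left and 1000 bp on the right. Joining regions less than 2000 bp apart gave a stretch of 142650 bp from 6 regions, chr8:128809351-128952001, which was also the widest of its joined list.

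What this region held besides H3K4me1 was broken up. It contained 15 H3K27ac regions of 300 bp to 7750 bp that covered 49.4% of it, with a longest gap of 10.3 kb. There were 9 H3K4me3 regions (13.8% covered), 9 p300/CBP peaks of 100 bp to 400 bp (2.27%) and 6 Pol II peaks (9.49%). No CTCF peak lay in it. The region includes 1 canonical PVT1 exon and 4 of the 35 distinct TSSs of basic PVT1 transcripts, so that it is mostly intronic.

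The widest H3K4me3 and Pol II peaks of the locus lay over MYC. H3K4me3 reached 8000 bp over MYC (chr8:128746501-128754501), with 90 wider regions in its list. Pol II reached 9650 bp over MYC (chr8:128746401-128756051), with 561 wider. The widest H3K27ac region of the locus was instead at the 3′ end of PVT1, 15650 bp at chr8:129182851-129198501, with 42 wider in its list. It held 2 p300/CBP peaks, among them the widest of the locus, 650 bp at chr8:129188901-129189551, and no H3K4me3, Pol II or CTCF peak. The widest CTCF peak, 450 bp at chr8:128412851-128413301, lay at -336 kb relative to the MYC TSS, beside the start of the lncRNA gene CCAT2.

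MYC had the marks of an active promoter. In the 3 kb window centred on its TSS (chr8:128748477), H3K27ac, H3K4me3 and Pol II each covered all 3000 bp. The H3K27ac region was 10250 bp wide and ran from -2.83 kb to 7.42 kb relative to the TSS, past the gene's end. A CTCF peak of 350 bp (chr8:128748351-128748701) lay over the TSS itself, and CTCF peaks of 400 bp and 150 bp lay 1.93 kb before and 1.57 kb after it. No H3K4me1 and no p300/CBP lay in the window, and the nearest H3K4me1 regions were 2.28 kb upstream (650 bp) and 4.22 kb downstream (3600 bp). Over all 19881 protein-coding TSS windows of chromosomes 1 to 22, X and Y, H3K4me1 was present in 59.4%, H3K4me3 in 62.7%, p300/CBP in 0.704%, Pol II in 58.4% and CTCF in 17.6%. The combination found at MYC (H3K27ac, H3K4me3, Pol II and CTCF without the other lists) occurred in 388 windows, 1.95%.

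PVT1 differed from MYC in whether H3K4me1 and CTCF were listed in the 3 kb window at its start. Its TSS window (chr8:128806787) held 2286 bp of H3K27ac, 2186 bp of H3K4me3, 1114 bp of H3K4me1 and 900 bp of Pol II, and no p300/CBP or CTCF. The H3K27ac region over the TSS was 10800 bp wide and the H3K4me3 region 4100 bp, and they began at -0.786 kb and -0.686 kb relative to the TSS. The H3K4me1 region of 1350 bp stopped 0.386 kb before the TSS, and the Pol II peak began 0.0140 kb after it. Among 18702 lncRNA TSS windows, 73.0% had no H3K27ac, and H3K4me1 was present in 33.6%, H3K4me3 in 24.4%, Pol II in 24.4%, p300/CBP in 1.83% and CTCF in 11.5%. Both genes thus had H3K27ac, H3K4me3 and Pol II at their starts, and CTCF was listed at that of MYC and H3K4me1 at that of PVT1. The H3K4me1 difference depended on the window, as MYC had 650 bp of it in a window of 6 kb.

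**Figure D3:**
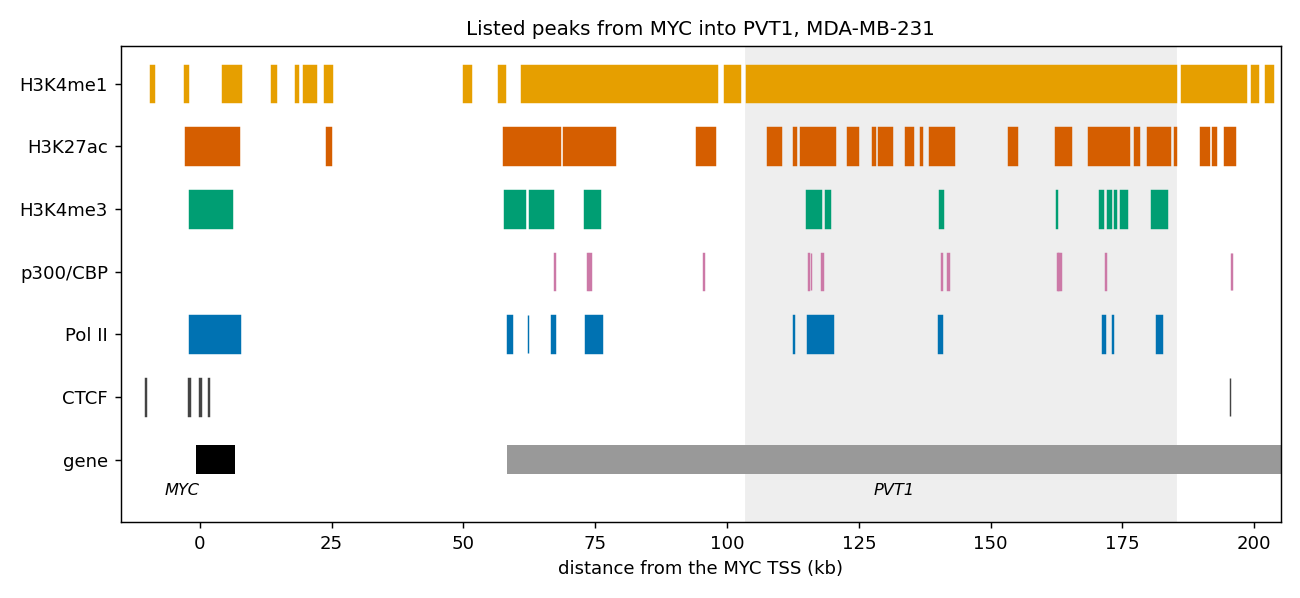
Listed peaks from MYC through the 5′ part of PVT1, in kb from the MYC TSS, with 1 row per list; the grey band is the 81.7 kb H3K4me1 region and narrow peaks are drawn at a minimum line width. CTCF peaks stand at MYC and then not again until 195 kb, and the first p300/CBP peak to the right of MYC stands at 67.3 kb, inside PVT1.

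PVT1 has many annotated starts, 35 distinct TSSs among its basic transcripts, of which 19 lie within 1 kb of the canonical TSS. H3K27ac lay over 30 of them, H3K4me3 over 26, Pol II over 17, H3K4me1 over 5, p300/CBP over 2 and CTCF over 0. The 19 near the canonical TSS all lay under the same H3K27ac region and the same H3K4me3 region, so these counts largely repeat single regions. Some internal starts were marked as well. At 59.9 kb and 60.7 kb past the canonical TSS, 3 TSSs lay inside a Pol II peak of 4800 bp and an H3K27ac region of 6650 bp, and the 2 covered by p300/CBP were among them. Of the 6 TSSs more than 100 kb past the canonical one, 1 lay in an H3K27ac region, at 255 kb, and 0 in Pol II or H3K4me3. That last TSS coincides with the start of MIR1207, a microRNA gene inside PVT1. The other microRNA genes found in the annotation were MIR1205, which no list touched, and MIR1208, which lay in H3K4me1 only.

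Farther into PVT1, Pol II peaks of 6400 bp and 3950 bp began 307 kb and 314 kb past the TSS. Neither touched H3K4me3 or p300/CBP, and H3K27ac covered 7.81% and 41.8% of them. The first 10 of the 13 Pol II peaks in PVT1 began within 123 kb of the TSS.

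Candidate active enhancers (cAEs) were taken as H3K4me1 regions that share at least 1 bp with H3K27ac and touch no protein-coding TSS window, and candidate inactive enhancers (cIEs) as those without H3K27ac. Of the 70 H3K4me1 regions at the locus, 27 were cAEs (38.6%) and 43 were cIEs, and 0 touched a protein-coding TSS window. Of all H3K4me1 regions outside such windows 33.0% were cAEs, and 40.3% of the whole list shared bases with H3K27ac, so that the share at the locus was near that of the list. The cAEs were wide, with a median of 3750 bp against 2550 bp over all 24323 cAEs. These sets are not those of the paper, which used RefSeq promoters and counts more cAEs and fewer cIEs. PVT1 held 11 cAEs and 19 cIEs, the left flank 6 and 9, the right flank 7 and 11, and the stretch between the genes 3 and 4. The MYC gene held 1, the 3600 bp region over its 3′ end, which is also counted between the genes. Starts of noncoding genes were not treated as promoters here. With windows at all basic TSSs in place of the protein-coding ones, 18 cAEs and 39 cIEs were left. The 81.7 kb region, which holds 4 basic PVT1 TSSs, is a cAE only under the first definition.

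A p300/CBP peak was found in 13 of the 27 cAEs, 48.1% (95% Wilson interval 30.7% to 66.0%, counting error only), where the share over all cAEs was 20.6%. Wide cAEs carried it more often in the whole list as well: at widths of 5 kb or more, 8 of 11 had p300/CBP at the locus and 47.4% in the genome, and under 2 kb, 2 of 9 and 6.26%. Pol II was present in 7 of 27 (25.9%, 13.2% to 44.7%) against 21.0%, H3K4me3 in 7 (25.9%, 13.2% to 44.7%) against 34.2%, and CTCF in 4 (14.8%, 5.92% to 32.5%) against 16.4%. The 27 regions are neighbours at a locus chosen with its marks known, so these intervals do not test a difference from the genome for any of the 4 lists. By combination, 8 cAEs had none of the 4, 6 had p300/CBP alone, and 4, from 4950 bp to 81650 bp wide, had p300/CBP, Pol II and H3K4me3 together. The 81.7 kb region is 1 of those 4.

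Nearly all p300/CBP and Pol II peaks of the locus were in cAEs, 31 of 32 for p300/CBP (50.1% over the list) and 15 of 16 for Pol II (23.0%). For CTCF the count was 4 of 10 (11.7%). The deposited p300/CBP list, with 13984 peaks, is larger than the set the paper counts. The paper gives a higher share of its own p300/CBP peaks in its cAEs, so shares over the list here are not those of the published peaks. The Pol II exception was the peak of 900 bp that begins at the PVT1 start. A shared stretch of 1 bp was enough, and the 9650 bp Pol II peak over the MYC promoter counted because it meets the 3600 bp cAE at the gene's 3′ end. H3K27ac lay under 30 of the 32 p300/CBP peaks (93.8%; 49.3% over the list). No p300/CBP peak touched CTCF, where 3.63% did over the list. Since the 81.7 kb region is itself a cAE and holds 9 of the p300/CBP peaks, these counts rest in part on its width. The 37150 bp region that starts 2.56 kb past the PVT1 TSS holds 4 p300/CBP and 3 Pol II peaks. It touches the 3 kb window of a basic PVT1 TSS at 1.49 kb, so neither region is a cAE when all basic TSSs are used. Counts of peaks under that definition are not given here.

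The sequence of 300 bp around each p300/CBP peak centre was searched on hg19 for TGANTCA, a pattern that reads the same on both strands. This pattern is looser than the AP-1 consensus given in the paper, whose middle base is G or C. Matches with A or T in the middle are counted as well. TGANTCA was present at 20 of 32 peaks (62.5%) and at 5331 of 13719 over the list, 38.9%. Among p300/CBP peaks in cAEs of the genome the share was 57.1%. The windows of some neighbouring peaks overlap, so that a match can be counted at more than 1 peak, and joining peaks less than 500 bp apart leaves 26 of the 32. Windows of 300 bp tiled over chromosome 8 held it in 9.82%. At the locus 6 peaks had more than 1 match, including both p300/CBP peaks under the 15650 bp H3K27ac region. The 3 p300/CBP peaks within 20 kb of the PVT1 TSS held 0, 1 and 0 matches. A match describes the letters of the reference and is not evidence of binding.

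With no p300/CBP at the MYC promoter, the distance to the nearest peak was measured. It was 67.3 kb, to a peak of 100 bp at chr8:128815751-128815851 in a PVT1 intron, and the nearest to the left was 428 kb away. Among 12218 protein-coding TSSs with H3K27ac in their window the median distance was 175 kb, and 9084 of them (74.3%) were farther from p300/CBP than MYC was. Between MYC and that peak lay 1 separate H3K27ac region, 800 bp wide and 24.0 kb from the TSS, outside those over the 2 promoters.

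Stretches without CTCF were long here. From the peak in the MYC intron to the first in PVT1, 193650 bp (chr8:128750201-128943850) had no CTCF peak, and 8.71% of the 39491 gaps between CTCF peaks in the genome were longer. This stretch starts inside MYC, contains the PVT1 promoter and the whole 81.7 kb region, and held 23 H3K27ac regions and 13 p300/CBP peaks. The longest CTCF-free stretch of the window, 353250 bp, began 233 kb from the MYC TSS and held 12 H3K27ac regions and 10 p300/CBP peaks. Left of MYC, 229000 bp (chr8:128509001-128738000) held neither H3K27ac nor p300/CBP.

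When H3K27ac regions less than 10 kb apart were joined, the domain over MYC stayed a single region of 10250 bp, with 14.9% of joined domains wider. The domain at the PVT1 start was 21150 bp, with 4.32% wider. With gaps of 20 kb the PVT1 domain grew to 178300 bp (chr8:128806001-128984301), joined from 24 regions with 16 p300/CBP peaks, and ranked 15 of 19427, while that over MYC reached 27650 bp and did not merge with it. How far the PVT1 domain extends therefore depended on the gap allowed.

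Of the 14 genes with a canonical TSS in the window, 6 had H3K27ac in the TSS window and 4 had H3K4me3. Among the 10 lncRNA genes the counts were 4 and 2, where 73.0% of all lncRNA windows had no H3K27ac and 24.4% had H3K4me3. The 6 genes were MYC, PVT1, CASC11, LINC02912, the unnamed lncRNA ENSG00000286034 and the pseudogene ENSG00000271509. CASC11 starts on the minus strand at -2.26 kb relative to the MYC TSS and shared the H3K27ac (2062 bp of its window), H3K4me3 (1212 bp) and Pol II (1312 bp) regions of MYC, so these 3 marks cannot be told apart from those of MYC. It also had 650 bp of H3K4me1, and a CTCF peak of 400 bp lay over its own TSS. LINC02912, inside PVT1, had 1118 bp of H3K27ac, 2668 bp of H3K4me1 and no H3K4me3. ENSG00000271509, at -444 kb, had 977 bp of H3K27ac, 577 bp of H3K4me3 and 477 bp of Pol II. POU5F1B, the only other protein-coding gene, had no peak of any list in its TSS window, nor did CASC8.

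The MYC network is the set of partners and competitors of MYC that share MAX or its relative MLX. Of the 13 listed genes, 12 have a canonical TSS in the annotation used (not MLXIP). H3K4me3 was present at all 12 TSS windows, MYC included (62.7% of all protein-coding windows), H3K27ac at 10 (61.5%), Pol II at 9 (58.4%), CTCF at 5 (17.6%) and p300/CBP at 0 (0.704%). H3K4me1 was present at 11 (59.4%), all but MYC. This depended on the window: H3K4me1 was present at 4 of the 12 in windows of 1 kb, and MYC itself had 650 bp of it in a window of 6 kb. The paralogues of MYC differed from it. MYCN, the neural paralogue, had 850 bp of H3K4me3 and 1300 bp of H3K4me1 with no H3K27ac or Pol II. MYCL had 2050 bp of H3K4me3 and 350 bp of H3K27ac with no Pol II.

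MAX, the obligate partner, had 2700 bp of H3K27ac and 1350 bp of Pol II. Among the repressors that compete for MAX, MNT had all 3000 bp covered by H3K27ac, H3K4me3 and Pol II, as MYC did, and MXD3 had 3000 bp of H3K27ac and 2350 bp of Pol II. MXI1 had 1512 bp of H3K27ac but 250 bp of Pol II. MGA, MXD1 and MXD4 had 1902 bp, 2290 bp and 1200 bp of H3K27ac. MLX, the partner of the glucose-responsive arm, had 2250 bp, and MLXIPL, of the same arm, had none. Within 50 kb of the TSS, MYC had 11.1 kb of H3K27ac, 3 cAEs and no p300/CBP peak. Of these, 2 cAEs and 10250 bp of the H3K27ac belong to the single H3K27ac region over the MYC promoter. MLX had 26.4 kb and 3 p300/CBP peaks and MNT 17.6 kb and none.

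**Figure D4:**
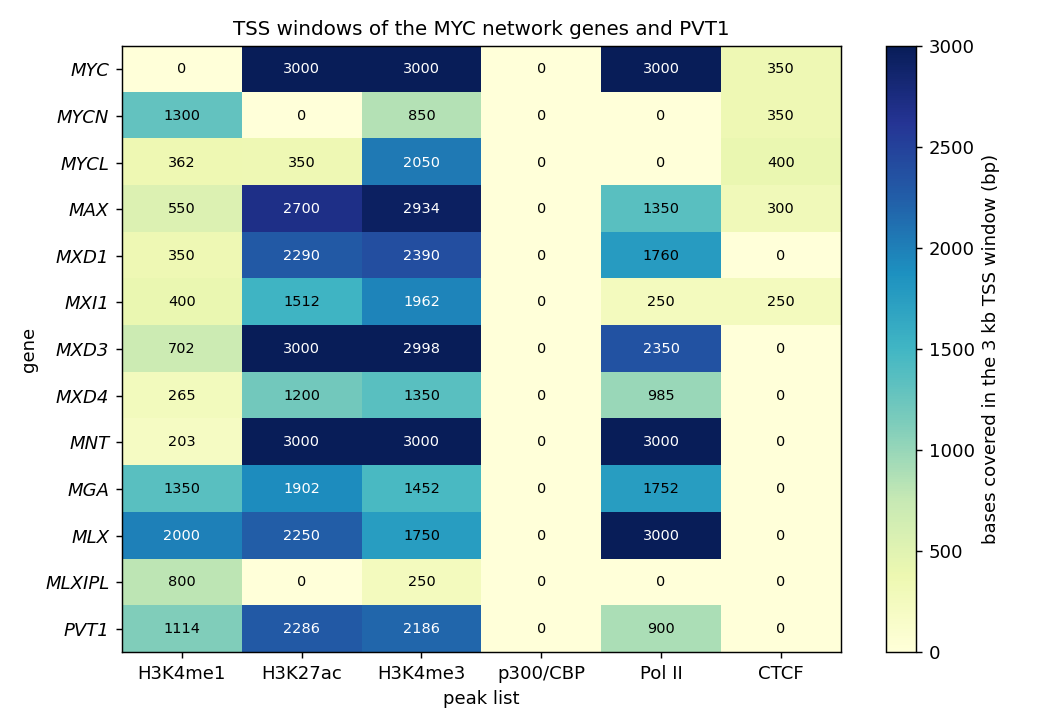
Bases covered by each list (columns) in the 3 kb TSS window (colour and number, in bp, from 0 to 3000) for the 12 MYC network genes and, in the last row, PVT1. MYC and MNT are fully covered by H3K27ac, H3K4me3 and Pol II, MYC alone of the 12 has 0 in H3K4me1, and the p300/CBP column is 0 throughout.

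Likeness to MYC was the Euclidean distance over 18 numbers, the logarithms of the covered bases of the 6 lists in 3 zones. The zones were the TSS window, the rest of 50 kb and the rest of 500 kb on each side. Each number was scaled by its standard deviation over all protein-coding genes. The 5 protein-coding genes most like MYC among 19880 were PBLD at 1.65, ENSG00000285655 at 1.67, NDUFV2 at 1.77, PTBP3 at 1.96 and ENSG00000283580 at 2.04. The median distance was 5.51. All 5 had H3K27ac, H3K4me3, Pol II and CTCF at the start without H3K4me1 or p300/CBP. The covered bases of these lists in the TSS window were among the 18 numbers, so this likeness follows from how the genes were chosen. None had as much around it: MYC had 272 kb of H3K4me1, 124 kb of H3K27ac and 27 p300/CBP peaks within 500 kb, and the highest values of the 5 were 182 kb and 89.7 kb, at NDUFV2, and 13 peaks, at NDUFV2 and PTBP3.

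Among 5077 protein-coding and lncRNA genes of at least 100 kb, 15 (0.295%) had a larger share of their body covered by H3K4me1 than PVT1, where the median was 3.41%. For H3K27ac 17 were higher (0.335%, median 1.13%) and for p300/CBP 18 (0.355%). H3K4me3 was higher in 76 and Pol II in 142 (2.80%). For CTCF 4212 genes (83.0%) had a larger share than PVT1, with a median of 0.297%. The ranking is a description, since the H3K4me1 width in PVT1 was known when the locus was chosen.

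These 6 shares were also compared among the 1416 lncRNA genes of that length, each scaled by its standard deviation over those genes. The 5 most like PVT1 were LINC01588, ARHGAP29-AS1, LINC01135, LINC00472 and FRMD6-AS2, at distances of 4.40 to 6.67. None reached its H3K4me1 share of 60%, the highest being 42.7% in LINC01588 and in ARHGAP29-AS1. ARHGAP29-AS1 slightly exceeded it in H3K27ac (26.7% against 26.5%), and LINC01135 in p300/CBP (1.46% against 1.36%). LINC00472 exceeded it in H3K4me3 (6.87% against 5.70%) and, with 10.4% against 5.99%, in Pol II, as did LINC01588 with 7.15%. All 5 had a larger CTCF share than PVT1, from 0.165% to 0.674%. PVT1 was also the longest, at 393 kb against 117 kb to 272 kb.

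**Figure D5:**
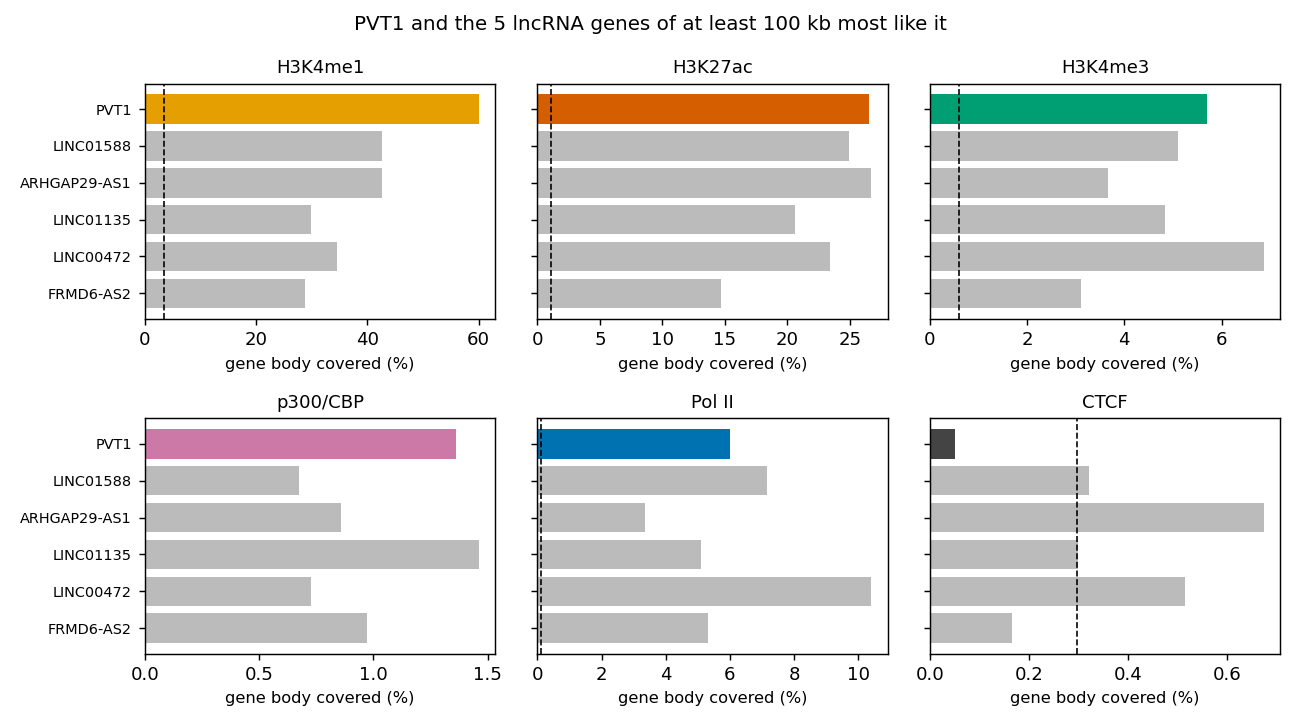
Share of the gene body covered by each list (horizontal axis, in percent, a different range for each list) in PVT1 (coloured) and the 5 lncRNA genes of at least 100 kb most like it (grey); the dashed line is the median of all 5077 genes of that length. PVT1 has the largest H3K4me1 share of these genes, 60%, and the smallest CTCF share, 0.0509%.

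The 500 kb limit set which peaks were counted. No peak crossed either edge. On the left, the last H3K4me1 region inside was 350 bp wide and 3.02 kb from the edge, and the first outside was 8350 bp wide and 6.23 kb away, under an H3K27ac region of 7100 bp. The first p300/CBP peak inside lay 59.3 kb from the left edge and the first outside 9.98 kb. On the right, the last H3K4me1 region inside was 2850 bp wide, 19.8 kb from the edge, and the first outside was 400 bp wide, 47.4 kb away.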

How the data were processed

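ChIP-seq of MDA-MB-231 cells was read from 6 lists that the authors deposited as positions in base pairs on hg19, with no score or count per peak. Per the paper's methods, reads were aligned with BWA-backtrack (the submitters' processing notes name Bowtie2), processed with PASHA and merged over replicates, and the Integrated Genome Browser was then used to keep stretches above a threshold. File names give uniquely mapped reads and bins of 50 bp. The threshold, the distance below which regions were joined and the shortest run were 30, 1000 bp and 250 bp for H3K4me1; 30, 500 bp and 150 bp for H3K4me3; 50, 500 bp and 150 bp for H3K27ac; 60, 50 bp and 50 bp for p300/CBP; 50, 800 bp and 100 bp for Pol II; and 50, 50 bp and 50 bp for CTCF. By their names the lists were scaled with background subtracted for p300/CBP and the histone marks, scaled for Pol II and neither for CTCF, so that covered shares are compared within a list.

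Peaks were compared with genes of GENCODE release 44 on GRCh37, an overlap being at least 1 bp and an end the first base after the peak. A TSS window is 3 kb centred on the Ensembl canonical TSS. Ranks, likeness and stitching (gaps under 10 kb joined) are as stated with each result; tiles with more than 50% undetermined sequence were left out, and genes like MYC were at least 1 Mb from it and from each other. Python 3.11.15, NumPy 2.4.6, SciPy 1.17.1, pysam 0.24.0 and matplotlib 3.10.9 were used. On simulated positions the interval functions were right in all 3640 comparisons made. The members, gene lists and measures were chosen with earlier results of these data known, so values are descriptive and no test was run. Named were the 2 genes, the network list, the 5 genes most like each, genes of the window with H3K27ac or H3K4me3 at the TSS, and peaks that are the widest of their list, at a TSS, nearest to the MYC TSS or at the window edges; peaks inside PVT1 named beyond that were chosen after their values were seen. Sequences of this chromosome are not printed.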

Additional observations from a re-analysis of the deposited data

How the results depend on the processing

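Of 80 alternative values for 42 results, 48 stayed within 1.5 times the main count, or within the counting interval of a share, and 32 moved. A share could move by this rule with a small change. The H3K4me1 covered share, from 20.3% to 19.2%, and the percentage of genes above PVT1 in CTCF, from 83.0 to 88.4, both counted as moved. Peaks narrower than their list's median were left out, as the lists give no height for a stricter threshold. This rule lowers the counts of every list by its design, and width is not height. It left 43 peaks of H3K4me1 (19.2% covered), 27 of H3K27ac (8.36%), 8 of H3K4me3 (1.96%), 19 of p300/CBP (0.420%), 8 of Pol II (2.22%) and 5 of CTCF (0.127%). A CTCF peak then lay in 3.70% of cAEs. With flanks of 250 kb the covered shares, in the same order, were 27.9%, 12.5%, 3.28%, 0.578%, 3.48% and 0.210%. When H3K27ac had to cover 50% of an H3K4me1 region, 13 cAEs remained, and segments shared by both marks numbered 49. Joining H3K4me1 regions less than 2000 bp apart widened the widest to 142650 bp, and 20 kb gaps widened the H3K27ac domains to 27650 bp at MYC and 178300 bp at PVT1. In windows of 1 kb, H3K4me1 was found at 4 network promoters and CTCF at 3. Among genes of at least 200 kb, the percentage with a larger share than PVT1 was 0.142 for H3K4me1, 0.0945 for H3K27ac, 0.331 for H3K4me3, 0.0473 for p300/CBP, 0.898 for Pol II and 88.4 for CTCF.

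No paired analysis was possible because each list was called on merged replicates, and no replicate was left out. The lists give no depth, and a mark under a list's threshold cannot be told from an absent one. Copy number was not analysed here.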
